A study of Oryctolagus cuniculus with 12 samples.

Results

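Messenger RNA of the operated conjunctiva was compared between 3 days (TL3d) and 3 hours (TL3h) after trabeculectomy, a filtration surgery that drains aqueous humor under the conjunctiva and so raises a filtering bleb. The comparison held 3 TL3h and 3 TL3d libraries, 6 of the 12 in the series, and each library was placed by its sample label. All animals were female Japanese white rabbits a few months old. In each the right eye received trabeculectomy with mitomycin C, an alkylating agent that crosslinks DNA and is used to limit scarring. Per the study's methods, the operation included a conjunctival incision, a scleral flap, and a peripheral iridectomy, and it ended with a conjunctival injection of betamethasone, a glucocorticoid, and an antibiotic ointment of erythromycin and colistin. The study took its trabeculectomy sequence data from earlier work, so its account of the operation is carried over to these libraries here. By that account, the TL3h and TL3d groups shared all of these agents and differed in the time of collection. For the control group, 3 libraries were made from the left eyes, which had no operation. Their time of collection was not given in the sources used here, and their levels are given below as background. The p-values come from 1 fit of all 12 libraries. The control libraries and those of 14 days after surgery (TL14d) thus enter the filter, the scaling, and the shared estimate of the spread. Which control eye belonged to which operated eye was not given in the sources used here, and the p-values measure the spread between these libraries. The study describes the values of a group as averages over eyes, and as only right eyes were operated on, the libraries of an operated group then came from different rabbits.

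A conjunctival wound is closed in overlapping phases. Injured cells first switch on immediate early transcription factors, cytokines, and stress proteins, and neutrophils enter the tissue. Over the following days monocytes become macrophages that clear debris, epithelial cells and fibroblasts divide and migrate, and a provisional matrix is laid down, which in a filtering bleb can end in scarring that blocks outflow. Conjunctiva is a mixture of a stratified epithelium with goblet cells, a fibroblast-rich stroma with vessels and nerves, and resident leukocytes, so a level in the whole tissue reflects the share of each.

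The estimated counts summed to 31377346 to 34929841 per library at TL3h and to 29517572 to 36567351 at TL3d, and levels are given as CPM, counts scaled to library size with TMM factors. The median SD of log2 CPM across genes was 0.26 within TL3h and 0.21 within TL3d. Across genes, libraries of the same group had Pearson correlations of 0.961 to 0.977 at TL3h and 0.906 to 0.974 at TL3d, and pairs from different groups had 0.804 to 0.868. Genes are not independent replicates, and these values are a description. The libraries carried the epithelial genes of conjunctiva, with KRT5 at 1909 to 9070 CPM and MUC4 at 1384 to 3033 CPM over the 6. KRT13 and MUC5AC, markers of its surface and goblet cells, had no values under these symbols. The TL3d libraries stood apart from each other in stromal genes. The 19 tested genes of the collagen list summed to 4776, 15724, and 71788 CPM at TL3d replicates 1, 2, and 3. Their sums were 101251 to 115533 CPM at TL3h and 13379.6 to 73229 CPM in the control libraries. TL3d replicate 3 was below every TL3h library and within the range of the control libraries in these genes, and replicate 1 was far below every other library of the 3 groups. The 33 keratin and junction genes went the other way, with 28209.7, 25329.8, and 11069 CPM at TL3d and 10853 to 17499 CPM at TL3h. Skeletal muscle genes summed to 9.04, 11.2, and 511 CPM at TL3d, so that replicate 3 alone carried a muscle signal, as did control replicate 2. TL3h replicate 2 had the most of the 2 erythroid genes tested, which summed to 360.1, 2479, and 388 CPM at TL3h. The median SD within TL3d was 0.12 without replicate 3, 0.18 without replicate 1, and 0.23 without replicate 2. Each of these values rests on 2 libraries, and leaving out any TL3h library lowered the TL3h value as well. In a whole tissue, fewer cells of a type and less RNA per cell cannot be told apart, and the part of tissue makeup in the results below was not tested. The estimated counts of COL1A1, DDIT3, HSPA8, KRT5, LDHA, MUC4, RPL15, and RPS6, among others, held fractions in every library. Some of their reads were thus divided between genes by estimate, and their levels are less certain. Other named genes held fractions in part of the libraries, such as LOC100343557 in 75% of its values.

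**Figure D1:**
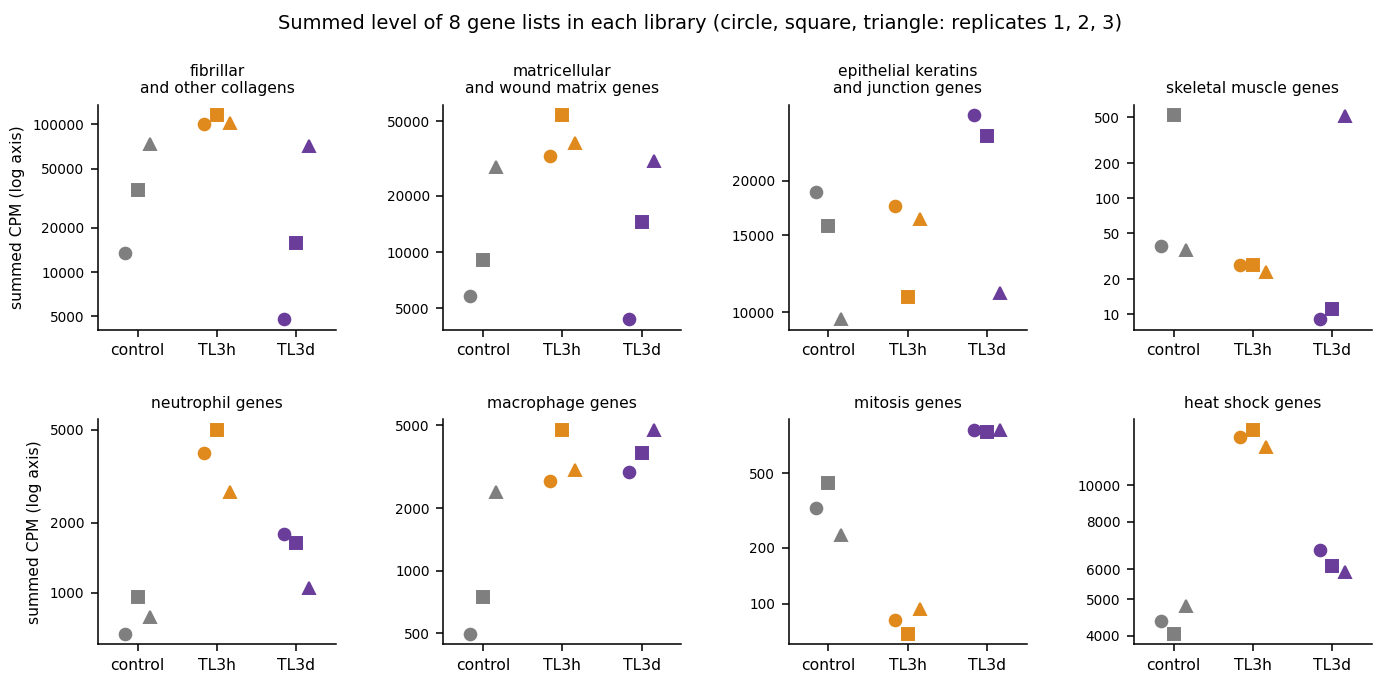
Summed CPM (log axis) of the tested members of 8 gene lists in each control, TL3h, and TL3d library, with 1 symbol per replicate. The collagen sum of TL3d spans 4776 to 71788 CPM, whereas the mitosis sums of the TL3d libraries lie between 835 and 859.6 CPM and do not overlap those of the TL3h libraries.

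Of 14835 genes tested, 2725 rose and 2812 fell between 3 hours and 3 days (edgeR quasi-likelihood test, adjusted p of 0.05 or less), which is 37.3% of the genes tested, 18.4% higher and 19% lower at TL3d. A further 9298 did not pass the threshold. The median log2 fold change was 1.29 among the genes that rose, -1.04 among those that fell, and -0.05 over all genes tested. A fold of at least 2 was reached by 1803 of the genes that rose and 1480 of those that fell (22.1% of the genes tested), and a fold of at least 16 by 122 and 131. The 3 TL3d and the 3 TL3h libraries did not overlap in 54.7% of the genes tested. Of the calls, 1853 rises and 1708 falls also held without each of the 6 libraries in turn. The split between rises and falls depended on the scaling. With library size alone the median of all genes moved to 0.43 and 5078 genes rose against 1233 that fell, so that 80.5% of the calls were rises in place of 49.2%. The log2(FPKM + 0.1) values of the authors gave 79.7%, with 5174 rises and 1322 falls. The TMM factors were 0.768 to 0.783 at TL3h and 1.04 to 1.10 at TL3d, and the 50 highest genes took 21.4% to 24.0% of the counts at TL3h and 15.3% to 20% at TL3d. Below, a list is described by how many members passed the threshold and by its median log2 fold change, to be read against 18.4% higher, 19% lower, and a median of -0.05 over all genes. A change of sign of a list's median with library size alone is stated.

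**Figure D2:**
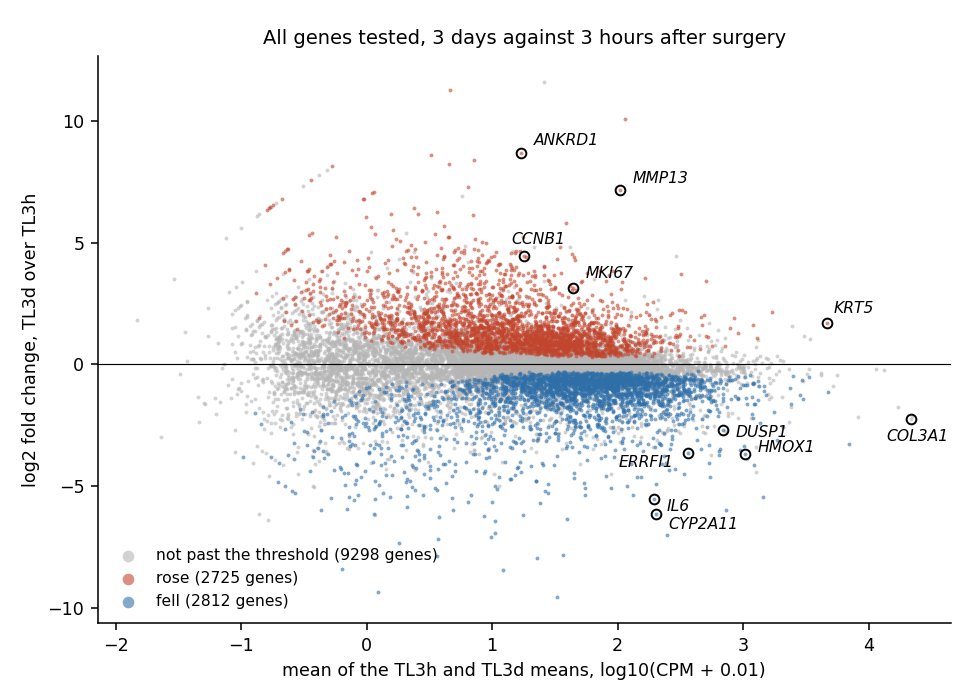
Log2 fold change of TL3d over TL3h against the mean level, log10(CPM + 0.01), for the 14835 genes tested, with the 2725 genes that rose in red and the 2812 that fell in blue. Named genes are circled, and COL3A1, among the highest in level, lies below 0 without passing the threshold.

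**Figure D3:**
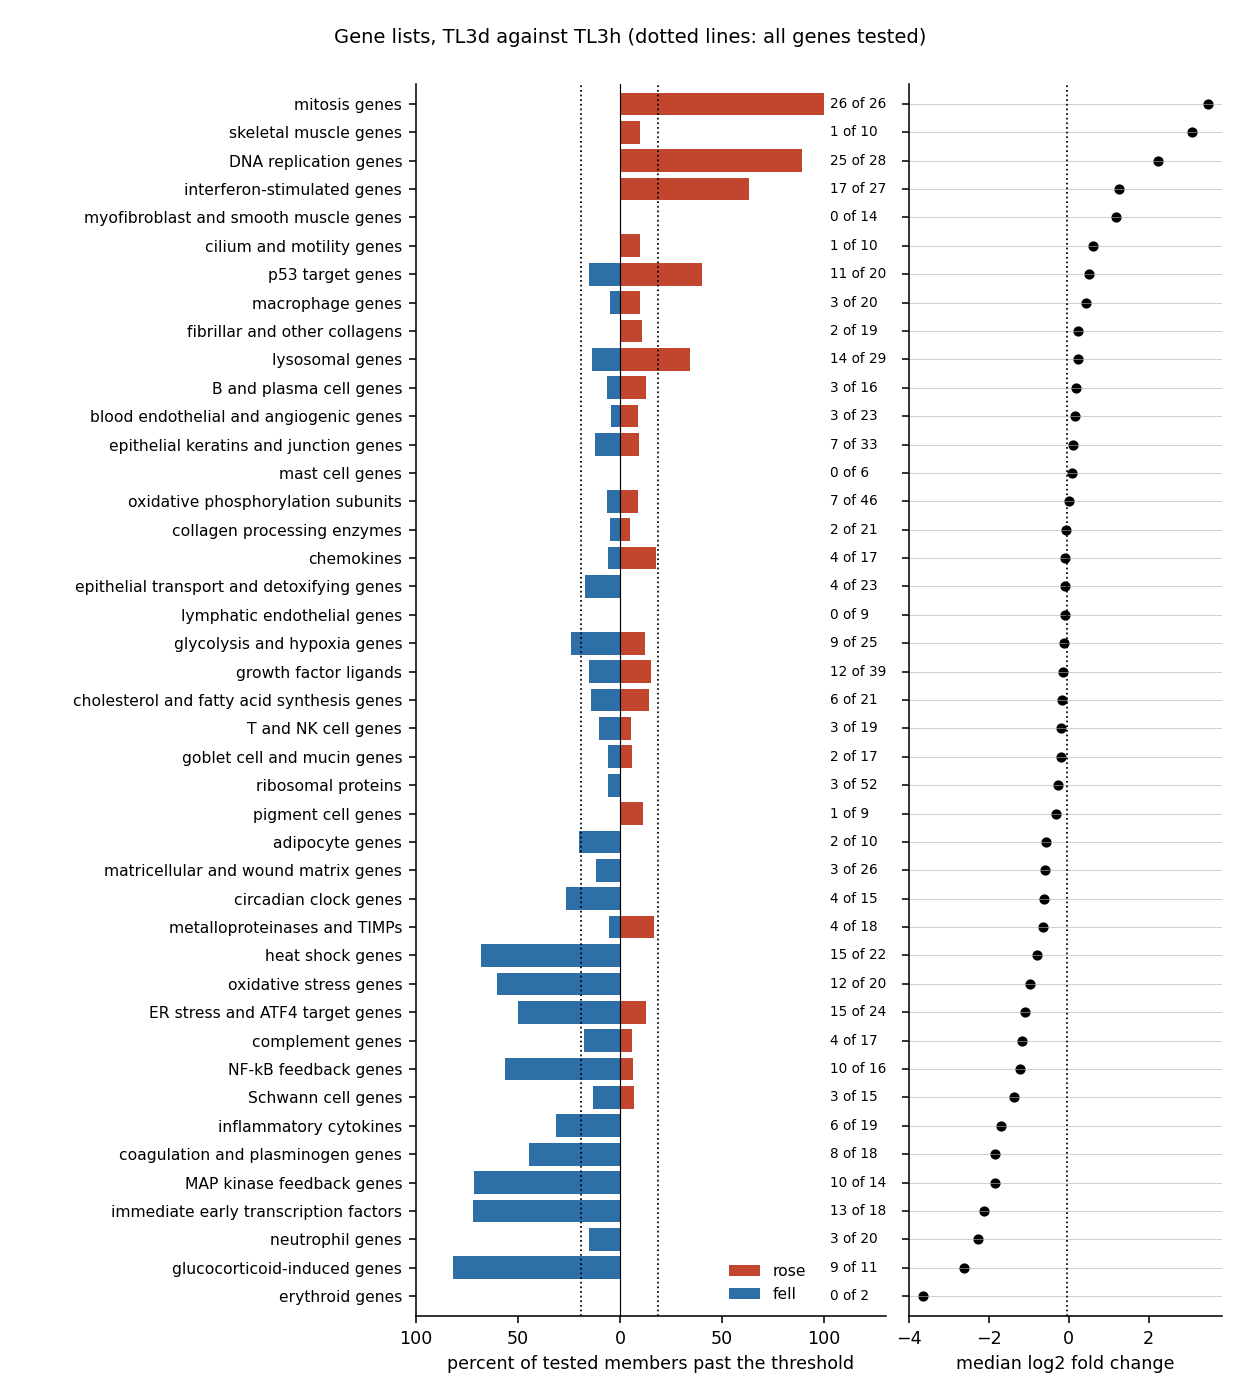
For 43 gene lists, the percent of tested members that rose (right) or fell (left) with the number past the threshold of the number tested, and the median log2 fold change. Dotted lines mark all genes tested (18.4% higher, 19% lower, median -0.05). Mitosis and DNA replication genes lie at the top, and immediate early, MAP kinase feedback, and glucocorticoid-induced genes near the bottom.

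The immediate early transcription factors, which cells make within minutes of a stimulus, fell from 3 hours to 3 days. Of 18 members tested, 13 fell, none rose, and 5 did not pass the threshold, with a median log2 fold change of -2.13. Of the falls, 10 held without each of the 6 libraries. EGR3, a zinc finger factor, was 45.1, 26.3, and 25.5 CPM at TL3h and 0.974, 1.45, and 2.02 CPM at TL3d. The lowest TL3h library was more than 10 times the highest TL3d library (log2 fold change -4.44 ± 0.55 (SE), adjusted p = 0.000245). FOSL1, a FOS-family subunit of AP-1, was 117, 115, and 87.5 CPM at TL3h and 10.7, 6.56, and 3.59 CPM at TL3d. Its 3 TL3d libraries lay below the 3 TL3h libraries, and 0.0475, 0.025, and 0.752 CPM were measured in the control libraries (log2 fold change -3.93 ± 1.05 (SE), adjusted p = 0.015). Without TL3d replicate 2 the adjusted p of FOSL1 was 0.0595. FOSB, another AP-1 subunit, was 108, 129, and 58.2 CPM at TL3h and 12.7, 8.99, and 7.26 CPM at TL3d (log2 fold change -3.35 ± 0.50 (SE), adjusted p = 0.000718). The nuclear orphan receptors NR4A1, NR4A2, and NR4A3 fell together, by 3.20, 2.53, and 3.32 on the log2 scale, and so did MYC, at 242, 214, and 203 CPM at TL3h and 64.8, 47.9, and 38.7 CPM at TL3d (log2 fold change -2.12 ± 0.47 (SE), adjusted p = 0.0057). NR4A3 lost its call without TL3d replicate 2 (adjusted p = 0.0532). FOS and EGR1 themselves were lower in the mean but did not pass. FOS was 530.1, 509, and 336 CPM at TL3h and 314, 180.1, and 168 CPM at TL3d, and EGR1 was 767, 515, and 631 CPM at TL3h and 378, 217, and 167 CPM at TL3d. Their groups did not overlap, and the adjusted p was 0.269 and 0.215 in the fit of all 12 libraries and 0.0409 and 0.024 in a fit of the 6 libraries alone.

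Feedback inhibitors of growth factor signalling fell as well. The MAP kinase feedback list holds the dual-specificity phosphatases (DUSP), which dephosphorylate MAP kinases, and the Sprouty and SPRED proteins, which damp receptor tyrosine kinases. Of its 14 members tested, 10 fell and none rose, with a median of -1.85, and 7 of the falls held without each of the 6 libraries. DUSP1 (chromosome 3, 53838319 to 53841423 of OryCun2.0) was 1261, 1228, and 1077 CPM at TL3h and 224, 173, and 157 CPM at TL3d. The TL3d libraries overlapped the control libraries, at 168, 136, and 163 CPM (log2 fold change -2.69 ± 0.25 (SE), adjusted p = 4.85e-05). DUSP2, an inducible phosphatase of the same family, was 22.9, 23.7, and 15 CPM at TL3h and 0.575, 0.677, and 0.654 CPM at TL3d (log2 fold change -5.01 ± 0.61 (SE), adjusted p = 0.000229). SPRY2, a Sprouty protein, was 82.7, 109.9, and 82.3 CPM at TL3h and 7.29, 6, and 9.08 CPM at TL3d, and all 3 TL3d libraries were also below the control libraries, at 14, 15.5, and 18.9 CPM (log2 fold change -3.62 ± 0.26 (SE), adjusted p = 2.41e-05). SPRY4, of the same family, was 66.1, 101, and 69 CPM at TL3h and 8.94, 4.71, and 8.62 CPM at TL3d (log2 fold change -3.41 ± 0.95 (SE), adjusted p = 0.0177), and its adjusted p was 0.0706 without TL3d replicate 2. ERRFI1, an inhibitor of the EGF receptor that is also induced by glucocorticoids, was 688, 589, and 734 CPM at TL3h and 52, 64.5, and 46 CPM at TL3d with little spread in either group (log2 fold change -3.63 ± 0.24 (SE), adjusted p = 1.68e-05).

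**Figure D4:**
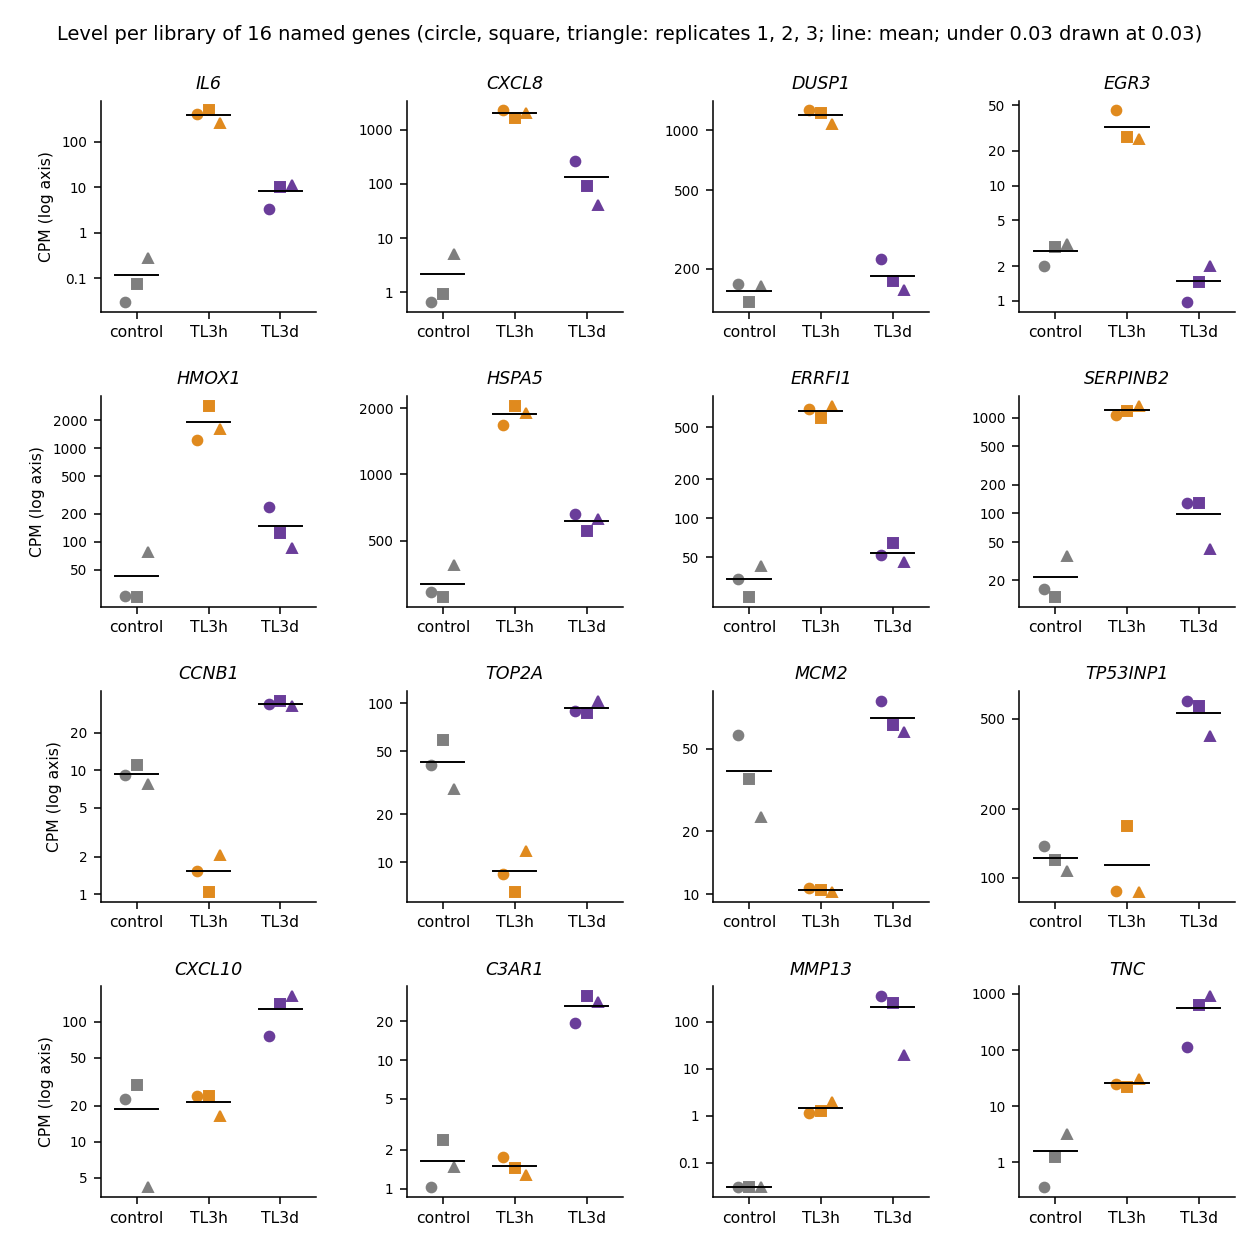
CPM (log axes) of 16 genes in each control, TL3h, and TL3d library, with 1 symbol per replicate and a line at the mean of the group. Values under 0.03 CPM are drawn at 0.03. The TL3d libraries lie below the TL3h libraries in the first 8 panels and above them in the last 8.

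The median inflammatory cytokine was lower at 3 days than at 3 hours and still above the control libraries. Of 19 tested, none rose, 6 fell, and 13 did not pass, with a median of -1.70, and 3 of the falls held without each of the 6 libraries. Against the control libraries, which both comparisons share, the median was 3.60 at TL3h and 2.08 at TL3d. IL6, a cytokine of the acute phase, was 0, 0.075, and 0.276 CPM in the control libraries, 408, 487, and 252 CPM at TL3h, and 3.32, 10.1, and 11.1 CPM at TL3d. TL3d lay between the other groups with no overlap (log2 fold change -5.55 ± 1.45 (SE), adjusted p = 0.0133). IL6 lost its call without TL3d replicate 1 or 2 (adjusted p from just over 0.05 to 0.0504). LIF, of the IL6 family, was 359, 144, and 371 CPM at TL3h and 64.4, 74.3, and 68.4 CPM at TL3d (log2 fold change -2.08 ± 0.47 (SE), adjusted p = 0.00664). TSLP, an epithelial cytokine that acts on dendritic cells, was 13.2, 6.68, and 9.22 CPM at TL3h and 1.47, 2.49, and 1.85 CPM at TL3d (log2 fold change -2.32 ± 0.48 (SE), adjusted p = 0.00396). IL36A, an epithelial cytokine of the IL1 family, was 35.7, 5.81, and 16.8 CPM at TL3h and 0.175, 0.185, and 0.0569 CPM at TL3d, and its TL3d libraries were near the control level of 0.0237, 0.05, and 0.552 CPM (log2 fold change -7.09 ± 1.53 (SE), adjusted p = 0.00502). IL1B, which neutrophils and macrophages release, was 0.475, 0.4, and 4.01 CPM in the control libraries, 469, 411, and 294 CPM at TL3h, and 94.3, 49.8, and 26.9 CPM at TL3d. Its groups did not overlap either, but it did not pass in the fit of 12 libraries (log2 fold change -2.78 ± 1.64 (SE), adjusted p = 0.206), and it did in the fit of the 6 libraries alone (adjusted p = 0.00668). The number of cytokines that fell was 11 in the fit of the 6 libraries and 3 without TL3d replicate 1 or without TL3d replicate 2.

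Few chemokines passed. CXCL8, which draws neutrophils, was 0.665, 0.951, and 5.04 CPM in the control libraries, 2277, 1634, and 2075 CPM at TL3h, and 267, 92.1, and 40.9 CPM at TL3d. All TL3d libraries were far below the TL3h libraries and above the control libraries, and the adjusted p was 0.0997 in the fit of 12 libraries and 0.00792 in that of the 6. CCL2, a monocyte attractant, had the same order of groups, with 0.237, 0.4, and 2.18 CPM in the control libraries, 418, 517, and 359.6 CPM at TL3h, and 60.3, 98.1, and 53.9 CPM at TL3d (adjusted p = 0.0802, and 0.00168 in the fit of the 6). CXCL10, an interferon-induced chemokine for T cells, was 23.9, 23.9, and 16.4 CPM at TL3h and 76.4, 142, and 165 CPM at TL3d, with every TL3d library above every TL3h library (log2 fold change 2.58 ± 0.66 (SE), adjusted p = 0.0119). CXCL11, which binds the same receptor CXCR3, was 2.04, 3.69, and 1.79 CPM at TL3h and 12, 18, and 20.4 CPM at TL3d (log2 fold change 2.74 ± 0.84 (SE), adjusted p = 0.0268). The CXCL11 call was lost without TL3h replicate 1 or 3 or TL3d replicate 2 or 3 (adjusted p from 0.0579 to 0.0871). A gene annotated as C-C motif chemokine 7 (LOC103351517, chromosome 19, 23792019 to 23793601) was 0.115, 0.332, and 0.183 CPM at TL3h and 409.6, 191, and 83.5 CPM at TL3d, whereas the control libraries had 0.166, 0.6, and 0.0502 CPM. It was the largest rise among the genes named by size (log2 fold change 10.07 ± 2.0 (SE), adjusted p = 0.00325). The table also holds a gene under the symbol CCL7, which was 48.2, 119, and 123 CPM at TL3h and 40.4, 48.6, and 27 CPM at TL3d, with overlap at the lower TL3h library (log2 fold change -1.32 ± 0.55 (SE), adjusted p = 0.0848). CCL24, an attractant of eosinophils, was 0.384, 0, and 0.0732 CPM at TL3h and 11.5, 0.431, and 0.313 CPM at TL3d, so that replicate 1 set the TL3d level and the groups overlapped (log2 fold change 4.70 ± 1.63 (SE), adjusted p = 0.0441). CCL24 lost its call without control replicate 2, TL3h replicate 2 or 3, TL3d replicate 1, or TL14d replicate 1, 2, or 3, or with limma-trend (prior count 0.5), limma-trend (prior count 2), the 6 libraries alone, or FPKM (adjusted p from 0.0504 to 0.469). CX3CL1, fractalkine, was 51.8, 32.8, and 50.1 CPM at TL3h and 23.7, 23.3, and 25.5 CPM at TL3d (log2 fold change -0.89 ± 0.26 (SE), adjusted p = 0.0211). CX3CL1 lost its call without TL3h replicate 1 or 3 or TL3d replicate 1 or 2, or with scaling by library size alone or FPKM (adjusted p from 0.0619 to 0.291). Of 17 chemokines tested under their symbols, 3 rose and 1 fell, beside 18.4% and 19% of all genes, and 1 rise and no fall held without each of the 6 libraries. Their median of -0.09 turned to 0.39 with library size alone. In the fit of the 6 libraries 2 rose and 5 fell.

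NF-kB feedback genes, whose products restrain the pathway that induces them, fell in 9 of 16 members tested and rose in 1, with a median of -1.24. Of these calls, 5 falls held without each of the 6 libraries, and the rise did not. NFKBIZ, a nuclear inhibitor-like regulator, was 242, 188, and 213 CPM at TL3h and 81.6, 67, and 60.8 CPM at TL3d (log2 fold change -1.62 ± 0.24 (SE), adjusted p = 0.000714). TNFAIP3, the ubiquitin-editing enzyme A20, was 207, 217, and 150.4 CPM at TL3h and 63.2, 58.3, and 34.5 CPM at TL3d (log2 fold change -1.88 ± 0.50 (SE), adjusted p = 0.0147), with an adjusted p of 0.051 without TL3d replicate 3. In each gene the TL3h libraries lay above the TL3d libraries. The member that rose was TRAF1, an adaptor of TNF receptors, at 16.9, 16.1, and 12.5 CPM at TL3h and 39.7, 30.4, and 27.2 CPM at TL3d (log2 fold change 1.10 ± 0.35 (SE), adjusted p = 0.031). TRAF1 lost its call without TL3h replicate 1, 2, or 3 or TL3d replicate 1 or 2 (adjusted p from 0.0523 to 0.098). Without TL3d replicate 3 the number that fell was 5.

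Glucocorticoid-induced genes fell in 9 of 11 members tested, with a median of -2.62, and none rose. Per the study's methods for trabeculectomy, betamethasone was injected at the end of surgery, and its part in these values was not tested. PER1, a clock gene that glucocorticoids induce, was 175, 181, and 151 CPM at TL3h and 39.2, 38.7, and 25.1 CPM at TL3d, without overlap (log2 fold change -2.30 ± 0.52 (SE), adjusted p = 0.00671). ZBTB16, a zinc finger repressor, was 13, 14, and 275 CPM in the control libraries, 27.1, 39.7, and 73.7 CPM at TL3h, and 2.05, 2.12, and 4.35 CPM at TL3d (log2 fold change -4.04 ± 1.23 (SE), adjusted p = 0.0263). ZBTB16 lost its call without TL3h replicate 3 or TL3d replicate 1, 2, or 3 (adjusted p from 0.0509 to 0.0906). FKBP5, a co-chaperone of the glucocorticoid receptor, was 7.26, 8.83, and 454 CPM in the control libraries, 185, 231, and 296 CPM at TL3h, and 32.1, 24.6, and 36.1 CPM at TL3d. Control replicate 3 was higher in FKBP5, ZBTB16, and KLF9 than the other control libraries and than every operated library. FKBP5 did not pass (log2 fold change -2.94 ± 1.29 (SE), adjusted p = 0.0981), and without control replicate 3, a library outside the contrast, its adjusted p was 0.000405. The number that fell was 5 without TL3d replicate 1 or without TL3d replicate 2. A pair of metallothionein genes, which bind zinc and copper and respond to glucocorticoids and metals, were among the largest falls. LOC100343557 (metallothionein-2D) was 521, 570.3, and 379.6 CPM at TL3h and 3.9, 2.16, and 5.38 CPM at TL3d (log2 fold change -7.0 ± 1.14 (SE), adjusted p = 0.00111), and LOC100343299 (metallothionein-2A) was 1285, 1772, and 1249.8 CPM at TL3h and 39.8, 20.5, and 8.02 CPM at TL3d (log2 fold change -5.98 ± 1.30 (SE), adjusted p = 0.00525). The control libraries had 2.11, 2.65, and 36 CPM of the first and 3.73, 2.53, and 66.3 CPM of the second, far below the TL3h libraries. The genes lie near each other on chromosome 5 (12927577 to 12929021 and 12908565 to 12909376) and may share reads. Clock genes fell in 4 of 15 members and rose in none, with a median of -0.64, and without any 1 of the 6 libraries except TL3h replicate 2 that number was 2. NFIL3, a clock-linked repressor, was 86.5, 115, and 58 CPM at TL3h and 14, 11.4, and 17.8 CPM at TL3d (log2 fold change -2.59 ± 0.73 (SE), adjusted p = 0.0193), and was lost without TL3h replicate 2 or TL3d replicate 1 or 2 (adjusted p from 0.0592 to 0.0732). ARNTL, the core clock activator, was 7.73, 17.3, and 9.8 CPM at TL3h and 18.1, 13.1, and 16.1 CPM at TL3d, with overlap (log2 fold change 0.45 ± 0.38 (SE), adjusted p = 0.379).

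Stress genes fell in large part. Of 22 heat shock genes tested, which encode chaperones and their partners, 15 fell and none rose, with a median of -0.81. HSPA8, the constitutive HSP70, was 4970.1, 4165, and 3830.4 CPM at TL3h and 1910, 1598, and 1346 CPM at TL3d (log2 fold change -1.42 ± 0.25 (SE), adjusted p = 0.00188). HSPD1, the mitochondrial HSP60, was 546, 680.4, and 599.7 CPM at TL3h and 199, 174, and 179 CPM at TL3d (log2 fold change -1.72 ± 0.18 (SE), adjusted p = 0.000103). HSPA5, the chaperone BiP of the endoplasmic reticulum, was 1682, 2059.8, and 1902 CPM at TL3h and 657, 554, and 624 CPM at TL3d (log2 fold change -1.62 ± 0.30 (SE), adjusted p = 0.00219). The groups were well apart in each, and the spread within a group was small. CRYAB, a small heat shock protein, was highest in TL3h replicate 2, with 236, 792, and 406 CPM at TL3h and 95.4, 112, and 144 CPM at TL3d (log2 fold change -2.03 ± 0.53 (SE), adjusted p = 0.0133). CRYAB lost its call without TL3h replicate 2 or TL3d replicate 1 (adjusted p from 0.0506 to 0.0602). With library size alone, 8 heat shock genes fell and 2 rose, and under TMM 12 of the 15 falls held without each of the 6 libraries.

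Of 24 genes of endoplasmic reticulum stress and the ATF4 program, which raises amino acid supply, 12 fell and 3 rose, with a median of -1.10, and 11 of the falls held without each of the 6 libraries. ATF4, the transcription factor itself, was 99.6, 82.7, and 63.3 CPM at TL3h and 32.1, 26.1, and 28.2 CPM at TL3d (log2 fold change -1.51 ± 0.24 (SE), adjusted p = 0.000992). DDIT3, its proapoptotic target CHOP, was 35.2, 31.1, and 33.4 CPM at TL3h and 15, 11.7, and 11.1 CPM at TL3d (log2 fold change -1.40 ± 0.22 (SE), adjusted p = 0.000838). NUPR1, a stress-induced chromatin protein, was 116, 116, and 183 CPM at TL3h and 8.39, 7.73, and 13 CPM at TL3d, and its TL3d libraries lay below the control libraries, at 29.7, 55.7, and 34.3 CPM, as well (log2 fold change -3.83 ± 0.72 (SE), adjusted p = 0.0024). SLC7A5, a transporter of large neutral amino acids, was 404, 609.5, and 405 CPM at TL3h and 174, 105, and 48.3 CPM at TL3d (log2 fold change -2.12 ± 0.45 (SE), adjusted p = 0.00497). SDF2L1, an endoplasmic reticulum protein, went the other way at 7.3, 6.35, and 7.5 CPM at TL3h and 13.5, 13.6, and 19.4 CPM at TL3d (log2 fold change 1.14 ± 0.18 (SE), adjusted p = 0.000978). The other members that rose were EDEM1 and SEL1L, which serve the degradation of misfolded proteins. The call of EDEM1 was lost without control replicate 1 or 2, TL3h replicate 1, 2, or 3, TL3d replicate 1, 2, or 3, or TL14d replicate 3 (adjusted p from 0.0583 to 0.108). That of SEL1L was lost without TL3d replicate 3 (adjusted p = 0.0512), which left SDF2L1. Of 20 oxidative stress genes, 12 fell and none rose, with a median of -0.97. HMOX1, the heme-degrading enzyme, was 26.2, 25.4, and 77.8 CPM in the control libraries, 1237, 2877, and 1618 CPM at TL3h, and 233, 124, and 85.3 CPM at TL3d, so that TL3d was between the other groups without overlap (log2 fold change -3.70 ± 0.56 (SE), adjusted p = 0.000772). GCLC, the catalytic subunit of the first enzyme of glutathione synthesis, was 198, 236, and 251 CPM at TL3h and 48.6, 50.4, and 32 CPM at TL3d, with TL3d across the control level of 49.6, 42.4, and 49.6 CPM (log2 fold change -2.39 ± 0.23 (SE), adjusted p = 5.93e-05). GPX3, a secreted glutathione peroxidase, was 189, 710.3, and 279 CPM at TL3h and 6.5, 6.41, and 26.1 CPM at TL3d (log2 fold change -4.92 ± 1.28 (SE), adjusted p = 0.0129). GPX3 lost its call without TL3d replicate 1 or 2 (adjusted p from 0.0501 to 0.0547). With library size alone, 6 oxidative stress genes fell and 1 rose, and under TMM 8 of the 12 falls held without each of the 6 libraries.

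Genes of coagulation and plasminogen activation, which set and dissolve fibrin, fell in 8 of 18 members tested and rose in none, with a median of -1.85, and 6 of the falls held without each of the 6 libraries. SERPINB2, the plasminogen activator inhibitor PAI-2, was 1063, 1169.8, and 1339 CPM at TL3h and 129.7, 127, and 42 CPM at TL3d (log2 fold change -3.58 ± 0.76 (SE), adjusted p = 0.00464). PLAUR, the urokinase receptor, was 679.6, 314, and 450.1 CPM at TL3h and 60.3, 52.1, and 72.9 CPM at TL3d (log2 fold change -2.96 ± 0.66 (SE), adjusted p = 0.00621). THBD, thrombomodulin, was 111, 251, and 80.7 CPM at TL3h and 16.5, 17.9, and 23.7 CPM at TL3d (log2 fold change -2.93 ± 0.42 (SE), adjusted p = 0.000547). No TL3d library reached the lowest TL3h library in these 3 genes. F2, the gene of prothrombin, was low but ordered alike, with 15.6, 18.7, and 15.2 CPM at TL3h and 1.17, 0.677, and 0.37 CPM at TL3d (log2 fold change -4.47 ± 0.73 (SE), adjusted p = 0.00115). F3, tissue factor, was 4058, 1799, and 5106 CPM at TL3h and 1182, 1525, and 789 CPM at TL3d (log2 fold change -1.65 ± 0.41 (SE), adjusted p = 0.0106), and its TL3d libraries overlapped the control libraries, at 1862, 1713, and 1284 CPM. With FPKM the adjusted p of F3 was 0.0671.

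Genes of cell division rose. All 26 mitosis genes tested rose, with a median log2 fold change of 3.49, and each call also held without any 1 of the 6 libraries. Their summed level was 68.9 to 93.7 CPM at TL3h, 835 to 859.6 CPM at TL3d, and 233 to 447 CPM in the control libraries, so that TL3h lay below and TL3d above the control group. CCNB1, the cyclin that drives entry into mitosis (chromosome 11, 85364692 to 85371347), was 9.18, 11, and 7.8 CPM in the control libraries, 1.54, 1.04, and 2.09 CPM at TL3h, and 34.3, 36.3, and 32.6 CPM at TL3d (log2 fold change 4.46 ± 0.35 (SE), adjusted p = 2.97e-05). TTK, a spindle checkpoint kinase, was 0.961, 1.04, and 1.57 CPM at TL3h and 34.2, 29.3, and 26.4 CPM at TL3d (log2 fold change 4.65 ± 0.33 (SE), adjusted p = 2.40e-05). TOP2A, the topoisomerase that untangles sister DNA, was 8.42, 6.47, and 11.7 CPM at TL3h and 88.9, 87.5, and 104 CPM at TL3d (log2 fold change 3.40 ± 0.31 (SE), adjusted p = 4.82e-05). MKI67, the proliferation marker Ki-67, was 45.3, 70, and 28.2 CPM in the control libraries, 7.23, 7.38, and 12.2 CPM at TL3h, and 75.2, 71.8, and 90.6 CPM at TL3d. All TL3d libraries were above all TL3h and control libraries (log2 fold change 3.15 ± 0.42 (SE), adjusted p = 0.000398). KIF2C, a mitotic kinesin outside the list, was 0.423, 0.332, and 0.841 CPM at TL3h and 17, 16.9, and 17.8 CPM at TL3d and was among the 15 largest rises (log2 fold change 5.0 ± 0.44 (SE), adjusted p = 4.36e-05). TL3d replicate 3, which stood apart in collagen, was like the other TL3d libraries in these genes.

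Of 28 DNA replication genes, 25 rose, none fell, and 3 did not pass, with a median of 2.24, and 24 of the rises held without each of the 6 libraries. GINS1, a subunit of the replicative helicase, was 0.192, 0.124, and 0.585 CPM at TL3h and 7.92, 7.02, and 5.95 CPM at TL3d (log2 fold change 4.50 ± 0.54 (SE), adjusted p = 0.000217). CLSPN, the checkpoint adaptor claspin, was 1.69, 1.7, and 2.05 CPM at TL3h and 39.1, 23.7, and 24.1 CPM at TL3d (log2 fold change 3.99 ± 0.42 (SE), adjusted p = 0.000103). MCM2, a subunit of the MCM helicase ring, was 10.6, 10.4, and 10.2 CPM at TL3h and 85, 64.9, and 60.2 CPM at TL3d (log2 fold change 2.75 ± 0.31 (SE), adjusted p = 0.000147). The other MCM genes tested, MCM3 to MCM7, rose by 2.37, 1.01, 2.35, 1.98, and 1.80 on the log2 scale. MCM4 lost its call without TL3h replicate 1 or 2 or TL3d replicate 1 or 2 (adjusted p from 0.0536 to 0.0859). RRM2, the regulated subunit of ribonucleotide reductase, was 41.1, 37, and 13.5 CPM at TL3h and 224, 127, and 109 CPM at TL3d (log2 fold change 2.33 ± 0.45 (SE), adjusted p = 0.00274). TL3d replicate 1 was the highest library in GINS1, CLSPN, MCM2, and RRM2. PCNA, the sliding clamp of DNA polymerase, rose less, from 72.6, 79.5, and 83.4 CPM at TL3h to 204, 162, and 156 CPM at TL3d (log2 fold change 1.15 ± 0.20 (SE), adjusted p = 0.00185). CDC6, which loads the MCM helicase, and RFC3, of the clamp loader, had log2 fold changes of 0.74 and -0.16 and did not pass.

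The targets of p53, the factor that answers DNA damage, went both ways. Of 20 tested, 8 rose and 3 fell, with a median of 0.50, and 1 of the falls held without each of the 6 libraries. DDB2, a damage sensor of nucleotide excision repair, was 49.6, 39.3, and 23.7 CPM in the control libraries, 16.6, 17.2, and 11.5 CPM at TL3h, and 112, 126, and 89.4 CPM at TL3d, with TL3d above both other groups (log2 fold change 2.85 ± 0.31 (SE), adjusted p = 0.000115). TP53INP1, a stress-induced partner of p53, was 138, 119.9, and 106 CPM in the control libraries, 87.6, 169, and 86.1 CPM at TL3h, and 602, 571, and 421 CPM at TL3d, again with no overlap (log2 fold change 2.22 ± 0.41 (SE), adjusted p = 0.00224). BAX, a proapoptotic BCL2 protein, was 21.4, 18.9, and 17.5 CPM at TL3h and 55.5, 56.4, and 50 CPM at TL3d (log2 fold change 1.49 ± 0.19 (SE), adjusted p = 0.000332). XPC, which recognises damaged DNA, was 113, 135, and 108 CPM at TL3h and 291, 276, and 217 CPM at TL3d (log2 fold change 1.14 ± 0.24 (SE), adjusted p = 0.00479). CDKN1A, the cell cycle inhibitor p21, was 135, 104, and 52.6 CPM in the control libraries, 1273, 1079.8, and 839 CPM at TL3h, and 1331, 1159, and 885 CPM at TL3d (log2 fold change 0.08 ± 0.56 (SE), adjusted p = 0.923). MDM2, the ubiquitin ligase of p53, was 194, 171, and 157 CPM in the control libraries, 562, 580.3, and 490.2 CPM at TL3h, and 978, 805, and 609.9 CPM at TL3d (log2 fold change 0.55 ± 0.40 (SE), adjusted p = 0.297). In both, the TL3h and TL3d libraries were all above the control libraries. The members that fell were PLK3, GADD45A, and AEN, of which PLK3, a stress kinase, was 119.6, 129, and 97.3 CPM at TL3h and 30.7, 20.2, and 12.4 CPM at TL3d (log2 fold change -2.45 ± 0.65 (SE), adjusted p = 0.014). PLK3 lost its call without TL3d replicate 2 (adjusted p = 0.0526). That of GADD45A was lost without TL3h replicate 1 or 2 or TL3d replicate 1, 2, or 3, or with scaling by library size alone or FPKM (adjusted p from 0.0686 to 0.169), and that of AEN with scaling by library size alone or FPKM (adjusted p from 0.0524 to 0.0672). The 8 that rose held without each of the 6 libraries.

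Interferon-stimulated genes, whose products block viral replication and mark interferon signalling, rose in 17 of 27 members tested and fell in none, with a median of 1.25. IFI44 was 58.3, 46.3, and 21.3 CPM in the control libraries, 16.4, 17.5, and 9.88 CPM at TL3h, and 82.8, 83.8, and 83.4 CPM at TL3d (log2 fold change 2.51 ± 0.35 (SE), adjusted p = 0.000435). OASL, of the oligoadenylate synthetase family, was 18.6, 18.6, and 12.4 CPM at TL3h and 104, 90.1, and 81.8 CPM at TL3d (log2 fold change 2.47 ± 0.36 (SE), adjusted p = 0.000617). IFIT2, which binds foreign RNA, was 25.1, 51.4, and 15.9 CPM at TL3h and 132, 157, and 207 CPM at TL3d (log2 fold change 2.42 ± 0.53 (SE), adjusted p = 0.00565). MX1, a dynamin-like antiviral GTPase, was 226, 291, and 181 CPM at TL3h and 650.1, 446, and 485 CPM at TL3d (log2 fold change 1.18 ± 0.29 (SE), adjusted p = 0.0106). Every TL3d library was above every TL3h library in these 4 genes. Against the control libraries the median of the list was -0.35 at TL3h and 0.90 at TL3d. ISG15, a ubiquitin-like protein, was 48.9, 44.3, and 25.9 CPM at TL3h and 139, 70, and 77.7 CPM at TL3d and did not pass (log2 fold change 1.27 ± 0.46 (SE), adjusted p = 0.0547), although it did with DESeq2 (adjusted p = 0.0191). RSAD2, the antiviral protein viperin, was 171, 124, and 47.9 CPM at TL3h and 203, 157, and 128 CPM at TL3d, with overlap (log2 fold change 0.51 ± 0.45 (SE), adjusted p = 0.401). Of the calls, 16 of 17 held without each of the 6 libraries.

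Few neutrophil and macrophage genes passed. Of 20 neutrophil genes 3 fell, none rose, and 17 did not pass, beside 19% of all genes that fell and 18.4% that rose. The summed level of the list was 3969.9, 5014, and 2716 CPM at TL3h and 1786, 1642, and 1052 CPM at TL3d, without overlap, against 668 to 964 CPM in the control libraries. The members that fell were LTF, CAMP, and LCN2, which encode granule proteins, and LTF was 136, 18, and 8.34 CPM at TL3h and 1.2, 1.88, and 1.11 CPM at TL3d (log2 fold change -5.27 ± 1.23 (SE), adjusted p = 0.00755). S100A8, a calcium-binding protein abundant in neutrophils, was 0.807, 0.976, and 25.8 CPM in the control libraries, 424, 943, and 362 CPM at TL3h, and 151, 127, and 20.3 CPM at TL3d (log2 fold change -2.53 ± 1.45 (SE), adjusted p = 0.193). CXCR2, the receptor of CXCL8, was 0.237, 0.2, and 6.42 CPM in the control libraries, 177, 235, and 82.6 CPM at TL3h, and 44.1, 20.6, and 11.7 CPM at TL3d (log2 fold change -2.69 ± 1.22 (SE), adjusted p = 0.107). TL3h and TL3d did not overlap in either, and each passed in the fit of the 6 libraries alone (adjusted p = 0.0443 and 0.0157), where 13 of the 20 fell and 1 rose. The median over the list was -2.27. Of 20 macrophage genes, 2 rose, 1 fell, and 17 did not pass, which is below the shares over all genes, and the median was 0.43. CSF1R, the receptor of the macrophage growth factor, was 21.5, 52.6, and 173 CPM in the control libraries, 102, 134, and 76.6 CPM at TL3h, and 274, 491, and 498 CPM at TL3d (log2 fold change 2.02 ± 0.69 (SE), adjusted p = 0.0419). CSF1R lost its call without control replicate 2, TL3h replicate 1, 2, or 3, TL3d replicate 1, 2, or 3, or TL14d replicate 3 (adjusted p from 0.0501 to 0.118). CD163, a scavenger receptor, was 7.45, 19.3, and 157 CPM in the control libraries, 127, 144, and 144 CPM at TL3h, and 453, 328, and 673 CPM at TL3d (log2 fold change 1.81 ± 0.96 (SE), adjusted p = 0.162). MSR1, the class A scavenger receptor, was 0.997, 1.03, and 2.61 CPM in the control libraries, 8.73, 13.4, and 11 CPM at TL3h, and 42.4, 70.7, and 64.5 CPM at TL3d (log2 fold change 2.43 ± 1.09 (SE), adjusted p = 0.106). All 3 genes were higher in each TL3d library than in each TL3h library, and CD163 and MSR1 passed in the fit of the 6 libraries (adjusted p = 0.00405 and 0.00149), in which 7 of the list rose. APOE, a lipid carrier that macrophages and other cells make, went down at 296, 613, and 486 CPM at TL3h and 63.4, 39.7, and 113 CPM at TL3d (log2 fold change -2.69 ± 0.60 (SE), adjusted p = 0.00631). MERTK, a receptor for apoptotic cells, was 35.4, 33.1, and 38.3 CPM at TL3h and 58.7, 59.1, and 47.2 CPM at TL3d (log2 fold change 0.63 ± 0.15 (SE), adjusted p = 0.00957).

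C3AR1, the receptor of the complement fragment C3a on myeloid cells, was 1.02, 2.38, and 1.48 CPM in the control libraries, 1.77, 1.45, and 1.28 CPM at TL3h, and 19.3, 31.7, and 28.1 CPM at TL3d and was the complement gene that rose (log2 fold change 4.13 ± 0.56 (SE), adjusted p = 0.000391). C7, C4A, and CD55 fell among 17 complement genes, near the 19% of all genes, and the median was -1.17. CD55, which dissolves complement convertases on the cell surface, was 599.8, 489, and 732 CPM at TL3h and 161, 107, and 111 CPM at TL3d (log2 fold change -2.26 ± 0.36 (SE), adjusted p = 0.000945). C7, a pore component, was 38.6, 11.2, and 21.4 CPM at TL3h and 0.15, 0.339, and 3.87 CPM at TL3d (log2 fold change -4.03 ± 1.23 (SE), adjusted p = 0.0265). C7 lost its call without TL3h replicate 1 or 3 or TL3d replicate 1 or 2 (adjusted p from 0.0518 to 0.0865). The number that fell was 6 without TL3d replicate 3 and 1 without TL3h replicate 1 or 3 or TL3d replicate 1 or 2. The call of C4A, of the classical pathway, was lost without control replicate 1 or 2, TL3h replicate 1, 2, or 3, TL3d replicate 1 or 2, or TL14d replicate 1 or 3, or with scaling by library size alone, no filter, or the 6 libraries alone (adjusted p from 0.0548 to 0.147). Lysosomal genes, which serve the breakdown of engulfed and aged material, rose in 10 of 29 members and fell in 4, and the median of 0.22 was 0.70 with library size alone, where 18 rose and none fell. GRN, progranulin, was 170.3, 181, and 130 CPM at TL3h and 412, 446, and 487 CPM at TL3d (log2 fold change 1.48 ± 0.21 (SE), adjusted p = 0.000569). ATP6V1H, a subunit of the proton pump, was 20.1, 20, and 25.6 CPM at TL3h and 57.6, 56.9, and 54.5 CPM at TL3d (log2 fold change 1.36 ± 0.17 (SE), adjusted p = 0.000221). In both genes every TL3d library was above every TL3h library. Of the calls of the list, 8 rises and 1 fall held without each of the 6 libraries. CTSB, the protease cathepsin B, was 511, 610.2, and 472 CPM at TL3h and 1250, 1267, and 1378 CPM at TL3d (log2 fold change 1.29 ± 0.38 (SE), adjusted p = 0.0224). CTSB lost its call without TL3h replicate 1 or 3 or TL3d replicate 2 or 3 (adjusted p from 0.0504 to 0.0669). LAMP2, a membrane protein of the lysosome, went down at 365, 457, and 374 CPM at TL3h and 163, 180, and 249.6 CPM at TL3d (log2 fold change -1.01 ± 0.26 (SE), adjusted p = 0.0115), a call that was lost with scaling by library size alone or FPKM (adjusted p from 0.0714 to 0.0788).

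T and B cell genes gave few calls, in shares below those of all genes. Of 19 T and NK cell genes, 1 rose and 2 fell, and the median of -0.19 turned to 0.27 with library size alone. CD3E, a chain of the T cell receptor complex, was 1.27, 4.07, and 1.98 CPM at TL3h and 1.3, 1.42, and 4.92 CPM at TL3d, with overlap (log2 fold change 0.06 ± 0.63 (SE), adjusted p = 0.946). The gene annotated as CD8B, a chain of the cytotoxic T cell coreceptor, was 0.403, 1, and 0.376 CPM in the control libraries, 0.192, 0.664, and 0.329 CPM at TL3h, and 14.7, 16.8, and 11.1 CPM at TL3d (log2 fold change 5.16 ± 1.14 (SE), adjusted p = 0.00589). Its partner chain CD8A was 1.19, 1.74, and 0.805 CPM at TL3h and 0.45, 0.216, and 1.54 CPM at TL3d (log2 fold change -0.76 ± 0.82 (SE), adjusted p = 0.495), so the rise of CD8B had no counterpart in CD8A or CD3E. PRF1, the pore protein of killer cells, was 3.57, 3.98, and 3.04 CPM at TL3h and 0.375, 0.154, and 0.512 CPM at TL3d (log2 fold change -3.33 ± 0.48 (SE), adjusted p = 0.000587). The rise and 1 of the 2 falls held without each of the 6 libraries. Of 16 B and plasma cell genes, 2 rose and 1 fell, and the median of 0.19 turned to -0.56 without TL3d replicate 3. CD22, a B cell lectin, was 0.237, 0.6, and 0.778 CPM in the control libraries, 2.31, 4.19, and 0.988 CPM at TL3h, and 23.2, 24.7, and 20.7 CPM at TL3d (log2 fold change 3.20 ± 0.82 (SE), adjusted p = 0.0123). PAX5, the B cell factor, was 0.0769, 0.124, and 0.11 CPM at TL3h and 6.27, 1.94, and 0.996 CPM at TL3d, at least 26.3-fold higher at TL3d with 3 counts in each TL3h library as the floor (adjusted p = 0.00448). Without TL3d replicate 1 that bound was 12.5-fold. MS4A1, the B cell antigen CD20, was 1.5, 4.85, and 1.65 CPM at TL3h and 1.75, 0.893, and 2.42 CPM at TL3d, with overlap (log2 fold change -0.66 ± 0.63 (SE), adjusted p = 0.44). JCHAIN, which joins polymeric immunoglobulin A, was 1523, 3515, and 1991 CPM at TL3h and 592, 305, and 1728 CPM at TL3d and overlapped (log2 fold change -1.42 ± 1.03 (SE), adjusted p = 0.304). Of 6 mast cell genes, with a median of 0.08, none passed, and KIT, the stem cell factor receptor, was 215, 121, and 97.3 CPM in the control libraries, 34.9, 9.71, and 21.6 CPM at TL3h, and 16.6, 24.1, and 15.9 CPM at TL3d (log2 fold change -0.23 ± 0.68 (SE), adjusted p = 0.819), below the control libraries at both times.

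Matrix genes spread widely between the TL3d libraries. Of the 19 tested genes of the collagen list, 2 rose and none fell, and the median was 0.24. It turned to -0.16 with FPKM and to -2.15 without TL3d replicate 3, where 6 fell. COL2A1, a collagen gene outside the list, fell and is given among the largest falls below. COL3A1, the fibrillar collagen of young connective tissue, was 35664, 38140.5, and 33914 CPM at TL3h and 262, 3100, and 19449.6 CPM at TL3d (log2 fold change -2.24 ± 1.20 (SE), adjusted p = 0.167). COL1A1, the main fibrillar collagen, was 22457, 29728, and 27029.6 CPM at TL3h and 342, 3452, and 19531 CPM at TL3d (log2 fold change -1.76 ± 1.18 (SE), adjusted p = 0.265). All TL3d libraries were below the TL3h libraries in both, but replicate 3 was more than 5 times replicate 2 and more than 50 times replicate 1. Without TL3d replicate 3 the adjusted p was 0.0243 for COL3A1 and 0.0426 for COL1A1. COL8A1, a short-chain collagen of basement membranes, was 18, 8.63, and 10.1 CPM at TL3h and 103, 123, and 246 CPM at TL3d (log2 fold change 3.68 ± 0.86 (SE), adjusted p = 0.00759). COL7A1, which anchors the epithelium to the stroma, was 174, 210.4, and 178 CPM at TL3h and 349, 563, and 415 CPM at TL3d (log2 fold change 1.24 ± 0.26 (SE), adjusted p = 0.00465). Both held without each of the 6 libraries. COL12A1, a fibril-associated collagen, was 36.4, 102, and 76.1 CPM at TL3h and 39.7, 164, and 821 CPM at TL3d (log2 fold change 2.25 ± 1.38 (SE), adjusted p = 0.224). DCN, the proteoglycan decorin that coats collagen fibrils, was 9318, 17662, and 10917 CPM at TL3h and 216, 843, and 2834 CPM at TL3d (log2 fold change -3.28 ± 1.07 (SE), adjusted p = 0.035). DCN lost its call without TL3h replicate 1, 2, or 3 or TL3d replicate 1 or 2 (adjusted p from 0.0538 to 0.115).

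Of 26 matricellular and wound matrix genes none rose and 3 fell, below the shares of all genes, and the median was -0.61. Of the falls, 1 held without each of the 6 libraries. TNC, tenascin C of the provisional matrix, was 0.356, 1.25, and 3.16 CPM in the control libraries, 24.5, 22.4, and 30.6 CPM at TL3h, and 115, 630.4, and 929 CPM at TL3d. Every TL3d library was above every TL3h library, and it did not pass in the fit of 12 libraries (log2 fold change 4.43 ± 1.74 (SE), adjusted p = 0.0695) and did in that of the 6 (adjusted p = 0.00613) and without TL14d replicate 1 (adjusted p = 0.00483). FN1, fibronectin, was 244, 479, and 1500.5 CPM in the control libraries, 2039, 2352, and 2269 CPM at TL3h, and 1641, 5356, and 6687 CPM at TL3d, with TL3d replicate 1 below the TL3h libraries and the others above (log2 fold change 1.04 ± 1.07 (SE), adjusted p = 0.47). POSTN, periostin, was 1082, 998, and 2365 CPM at TL3h and 18.1, 221, and 734 CPM at TL3d (log2 fold change -2.19 ± 1.16 (SE), adjusted p = 0.162). HAS1, a hyaluronan synthase, was 11.2, 14.3, and 3.15 CPM at TL3h and 0.425, 0.677, and 0.541 CPM at TL3d (log2 fold change -4.12 ± 0.59 (SE), adjusted p = 0.000541). The number that fell was 1 without TL3h replicate 2, TL3d replicate 1, or TL3d replicate 2, and 5 without TL14d replicate 1. Myofibroblast and smooth muscle genes had a median of 1.17 with none of 14 past the threshold. ACTA2, the alpha smooth muscle actin of myofibroblasts, was 6.19, 11.7, and 17.9 CPM in the control libraries, 30.3, 29.7, and 35.2 CPM at TL3h, and 21.1, 119.7, and 450 CPM at TL3d, so that TL3d replicate 1 was below the TL3h libraries and replicates 2 and 3 were above (log2 fold change 2.63 ± 1.25 (SE), adjusted p = 0.123). TAGLN, a calponin-like actin-binding protein, had the same order of libraries, with 132, 104, and 109 CPM at TL3h and 22.2, 199, and 551 CPM at TL3d (log2 fold change 1.16 ± 1.34 (SE), adjusted p = 0.523).

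The collagenase MMP13 (chromosome 1, 113615791 to 113627813) was 0, 0.025, and 0 CPM in the control libraries, 1.15, 1.29, and 1.98 CPM at TL3h, and 353, 254, and 19.5 CPM at TL3d (log2 fold change 7.14 ± 2.01 (SE), adjusted p = 0.0188). Its TL3d level ranged over more than 10-fold, with replicate 3 lowest, and all 3 libraries were far above the TL3h libraries. MMP13 lost its call without TL3h replicate 1, 2, or 3 (adjusted p from 0.0598 to 0.0656). MMP28, an epithelial metalloproteinase, was 4.04, 1.49, and 2.05 CPM at TL3h and 59, 25.9, and 12.9 CPM at TL3d (log2 fold change 3.69 ± 0.75 (SE), adjusted p = 0.00376). MMP1, interstitial collagenase, was above the control libraries at both times, with 6.03, 7.53, and 19.4 CPM in the control libraries, 442, 316, and 355 CPM at TL3h, and 569, 278, and 196 CPM at TL3d (log2 fold change -0.09 ± 0.85 (SE), adjusted p = 0.941). MMP9, a gelatinase, was 0.142, 0.175, and 2.13 CPM in the control libraries, 60.5, 87.6, and 39.3 CPM at TL3h, and 121, 302, and 134 CPM at TL3d (log2 fold change 1.57 ± 1.75 (SE), adjusted p = 0.507). MMP9 passed in the fit of the 6 libraries (adjusted p = 0.0346). TIMP1, an inhibitor of metalloproteinases, was 14.1, 30.3, and 71 CPM in the control libraries, 477, 798, and 486 CPM at TL3h, and 282, 275, and 477 CPM at TL3d and did not pass (log2 fold change -0.77 ± 0.71 (SE), adjusted p = 0.419). Of 18 metalloproteinases and TIMPs, 3 rose and 1 fell in the fit of 12 libraries and 6 rose and 3 fell in that of the 6, and the number that rose was 1 without TL3h replicate 1, 2, or 3 and 5 without TL14d replicate 1. The median of the list was -0.66, and 1 rise and no fall held without each of the 6 libraries. Of 21 collagen processing enzymes 1 rose and 1 fell, and the median of -0.07 turned to 0.39 with library size alone. The rise, PLOD2, a collagen lysyl hydroxylase, was 25.8, 14.9, and 28 CPM at TL3h and 56.2, 93.9, and 156 CPM at TL3d (log2 fold change 2.16 ± 0.75 (SE), adjusted p = 0.0439). PLOD2 lost its call without control replicate 1, 2, or 3, TL3h replicate 1, 2, or 3, TL3d replicate 2 or 3, or TL14d replicate 3, or with limma-trend (prior count 0.5) or limma-trend (prior count 2) (adjusted p from just over 0.05 to 0.128). The fall, PCOLCE2, an enhancer of procollagen cleavage, was lost without TL3h replicate 2 or TL3d replicate 1 or 2 (adjusted p from 0.0598 to 0.1). LOX, which crosslinks collagen, was 409.7, 1165, and 781 CPM at TL3h and 8.17, 167, and 1239 CPM at TL3d (log2 fold change -0.74 ± 1.37 (SE), adjusted p = 0.702), so that its TL3d libraries spanned more than 100-fold.

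Most epithelial genes did not pass. Of 33 keratin and junction genes, 3 rose and 4 fell, both below the 18.4% and 19% of all genes, with a median of 0.11. Of these, 1 rise and 4 falls held without each of the 6 libraries. KRT5, the keratin of basal cells, was 2695, 1937, and 1258 CPM in the control libraries, 2624, 2075, and 1909 CPM at TL3h, and 9069.9, 8648, and 3596 CPM at TL3d (log2 fold change 1.69 ± 0.48 (SE), adjusted p = 0.019). KRT5 lost its call without TL3h replicate 2 or 3 or TL3d replicate 1 or 2 (adjusted p from 0.0579 to 0.0627). ITGB4, the hemidesmosome integrin that fixes basal cells to the basement membrane, was 121, 79.6, and 120.4 CPM at TL3h and 742, 561, and 208 CPM at TL3d (log2 fold change 2.24 ± 0.48 (SE), adjusted p = 0.0049). TL3d replicate 3 was the lowest TL3d library in both. CLDN4, a tight junction claudin of surface cells, was 379.9, 380, and 282 CPM in the control libraries, 2546, 1651, and 2609 CPM at TL3h, and 529, 551, and 213 CPM at TL3d (log2 fold change -2.40 ± 0.44 (SE), adjusted p = 0.00227). EPCAM, an epithelial adhesion protein, was 353, 256, and 322 CPM at TL3h and 124, 116, and 92.7 CPM at TL3d (log2 fold change -1.48 ± 0.17 (SE), adjusted p = 0.000145). TGM1, which crosslinks the envelope of surface cells, was 199, 83, and 195 CPM at TL3h and 29.5, 30.9, and 8.76 CPM at TL3d (log2 fold change -2.79 ± 0.52 (SE), adjusted p = 0.00223). In these 3 genes no TL3d library reached a TL3h library. KRT16, a keratin of wounded epithelium, was 0.142, 0.325, and 0.226 CPM in the control libraries, 230.1, 197, and 153 CPM at TL3h, and 167, 109.9, and 12.9 CPM at TL3d, with 1 low TL3d library (log2 fold change -1.0 ± 1.15 (SE), adjusted p = 0.519). CDH1, E-cadherin, was 854, 817, and 942 CPM at TL3h and 729, 601, and 388 CPM at TL3d (log2 fold change -0.61 ± 0.25 (SE), adjusted p = 0.0768). The number that rose was 1 without TL3h replicate 2, TL3h replicate 3, TL3d replicate 1, or TL3d replicate 2.

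Of 17 goblet cell and mucin genes, 1 rose and 1 fell, and the median of -0.20 turned to 0.28 with library size alone and to 0.04 without TL3d replicate 3. The fall, CREB3L1, a transcription factor of secretory cells, was lost without TL3h replicate 1, 2, or 3 or TL3d replicate 1 or 2 (adjusted p from 0.0593 to 0.109). MUC4, a membrane mucin, was 3033, 2029.8, and 2364 CPM at TL3h and 2060.1, 3003, and 1384 CPM at TL3d and overlapped (log2 fold change -0.20 ± 0.31 (SE), adjusted p = 0.64). CLCA2, a regulator of chloride channels in stratified epithelium, was 21.4, 19.3, and 39.2 CPM at TL3h and 217, 143, and 54.1 CPM at TL3d (log2 fold change 2.38 ± 0.51 (SE), adjusted p = 0.00509). Of 23 transport and detoxifying genes, 4 fell, near the 19% of all genes, and none rose. Their median of -0.09 turned to 0.38 with library size alone and to 0.01 without TL3d replicate 3. CYP2A11, a cytochrome P450 of detoxification and the member among the 15 largest falls, was 884, 1107, and 434 CPM in the control libraries, 529, 106, and 551 CPM at TL3h, and 2.92, 7.33, and 6.29 CPM at TL3d, so that TL3d was far below both other groups (log2 fold change -6.17 ± 1.11 (SE), adjusted p = 0.00192). LOC100353821, annotated as cytochrome P450 2F5 and outside the list, was 123, 198, and 77.9 CPM in the control libraries, 70.3, 89.2, and 36.4 CPM at TL3h, and 0.2, 0, and 0.0285 CPM at TL3d, with TL3d replicate 2 at 0, and had the largest fall by fitted log2 fold change among the named genes (log2 fold change -9.58 ± 2.30 (SE), adjusted p = 0.00882). SLC26A4, the anion exchanger pendrin, was 81.8, 35.6, and 44.9 CPM at TL3h and 3.32, 1.42, and 0.626 CPM at TL3d (log2 fold change -4.91 ± 1.15 (SE), adjusted p = 0.00777). DHRS9, a retinol dehydrogenase, was 0.0237, 0.025, and 0.0502 CPM in the control libraries, 107, 97.9, and 52.1 CPM at TL3h, and 9.49, 0.4, and 0.0569 CPM at TL3d (log2 fold change -4.68 ± 1.46 (SE), adjusted p = 0.029). DHRS9 lost its call without TL3h replicate 1 or 2 or TL3d replicate 2 (adjusted p from 0.0641 to 0.0848). LOC100346910, annotated as cytochrome P450 26A1, which degrades retinoic acid, went up at 17.1, 9.08, and 4.44 CPM in the control libraries, 1.54, 0.373, and 0.841 CPM at TL3h, and 39.7, 43.9, and 19.4 CPM at TL3d (log2 fold change 5.21 ± 0.88 (SE), adjusted p = 0.00141). AQP3, a channel of water and glycerol, was 598, 281, and 487 CPM at TL3h and 1952, 538, and 412 CPM at TL3d, with overlap (log2 fold change 1.09 ± 0.57 (SE), adjusted p = 0.157). AQP5, a water channel, was 307, 83.8, and 252 CPM at TL3h and 397, 293, and 253 CPM at TL3d, with overlap (log2 fold change 0.56 ± 0.64 (SE), adjusted p = 0.522). The number that fell was 2 without TL3h replicate 1 or TL3d replicate 2. Of 10 cilium genes, with a median of 0.61, 1 rose, IFT88, a carrier of intraflagellar transport. IFT88 lost its call without TL3d replicate 3 (adjusted p = 0.0508).

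Glycolysis and hypoxia genes rose in 3 and fell in 6 of 25 members, beside 18.4% and 19% of all genes. Their median of -0.13 turned to 0.35 with library size alone, where 8 rose and 5 fell. ADM, adrenomedullin, a vasodilator peptide induced by hypoxia, was 496, 438, and 432 CPM at TL3h and 28.2, 21.8, and 31.6 CPM at TL3d (log2 fold change -4.07 ± 0.71 (SE), adjusted p = 0.00164). PFKFB3, which makes the activator of phosphofructokinase, was 616, 515, and 467 CPM at TL3h and 172, 112, and 104 CPM at TL3d (log2 fold change -2.04 ± 0.33 (SE), adjusted p = 0.00101). HK2, an inducible hexokinase, was 322, 271, and 430 CPM at TL3h and 159.8, 136, and 95.6 CPM at TL3d (log2 fold change -1.39 ± 0.25 (SE), adjusted p = 0.00207). GPI, glucose-6-phosphate isomerase, was 214, 166, and 190.4 CPM at TL3h and 539, 419, and 328 CPM at TL3d (log2 fold change 1.17 ± 0.21 (SE), adjusted p = 0.00177). The TL3h and TL3d libraries did not overlap in these 4 genes. SLC2A1, the glucose transporter GLUT1, was 87.7, 45.7, and 137 CPM at TL3h and 468, 357, and 116 CPM at TL3d (log2 fold change 1.80 ± 0.51 (SE), adjusted p = 0.0197). SLC2A1 lost its call without TL3h replicate 1 or 2 or TL3d replicate 1 or 2, or with the 6 libraries alone (adjusted p from 0.0505 to 0.0737). LDHA, lactate dehydrogenase, was 380.1, 229, and 499 CPM in the control libraries, 1343, 572, and 690.1 CPM at TL3h, and 1621, 1033, and 776 CPM at TL3d (log2 fold change 0.40 ± 0.41 (SE), adjusted p = 0.478).

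Of 46 subunits of oxidative phosphorylation, 4 rose and 3 fell, below the shares of all genes, with a median of 0.01, whereas library size alone gave 26 rises, no fall, and a median of 0.49. NDUFB8, a subunit of complex I, was 39.8, 34.3, and 36.5 CPM at TL3h and 58.8, 58.5, and 53.3 CPM at TL3d (log2 fold change 0.63 ± 0.11 (SE), adjusted p = 0.00149). None of the 3 falls and 2 of the 4 rises held without each of the 6 libraries. Ribosomal proteins had a median of -0.27 that turned to 0.20 with library size alone, and 3 of 52 fell, below the 19% of all genes. That number was 0 without TL3h replicate 1, 1 without TL3h replicate 2 or 3 or TL3d replicate 1, 15 without TL14d replicate 1, and 8 without TL14d replicate 2. RPS6, of the small subunit, was 1062, 1074, and 998 CPM at TL3h and 879.7, 954, and 983 CPM at TL3d (log2 fold change -0.15 ± 0.13 (SE), adjusted p = 0.366). The median over all genes moved from -0.05 to 0.43 between the same scalings. Of 21 genes of cholesterol and fatty acid synthesis, 3 rose and 3 fell, beside 18.4% and 19% of all genes. LSS, lanosterol synthase, was 35.6, 26.4, and 54.4 CPM at TL3h and 88.5, 96.1, and 62.5 CPM at TL3d (log2 fold change 1.09 ± 0.26 (SE), adjusted p = 0.00954). The list's median of -0.18 turned to 0.30 with library size alone.

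**Figure D5:**
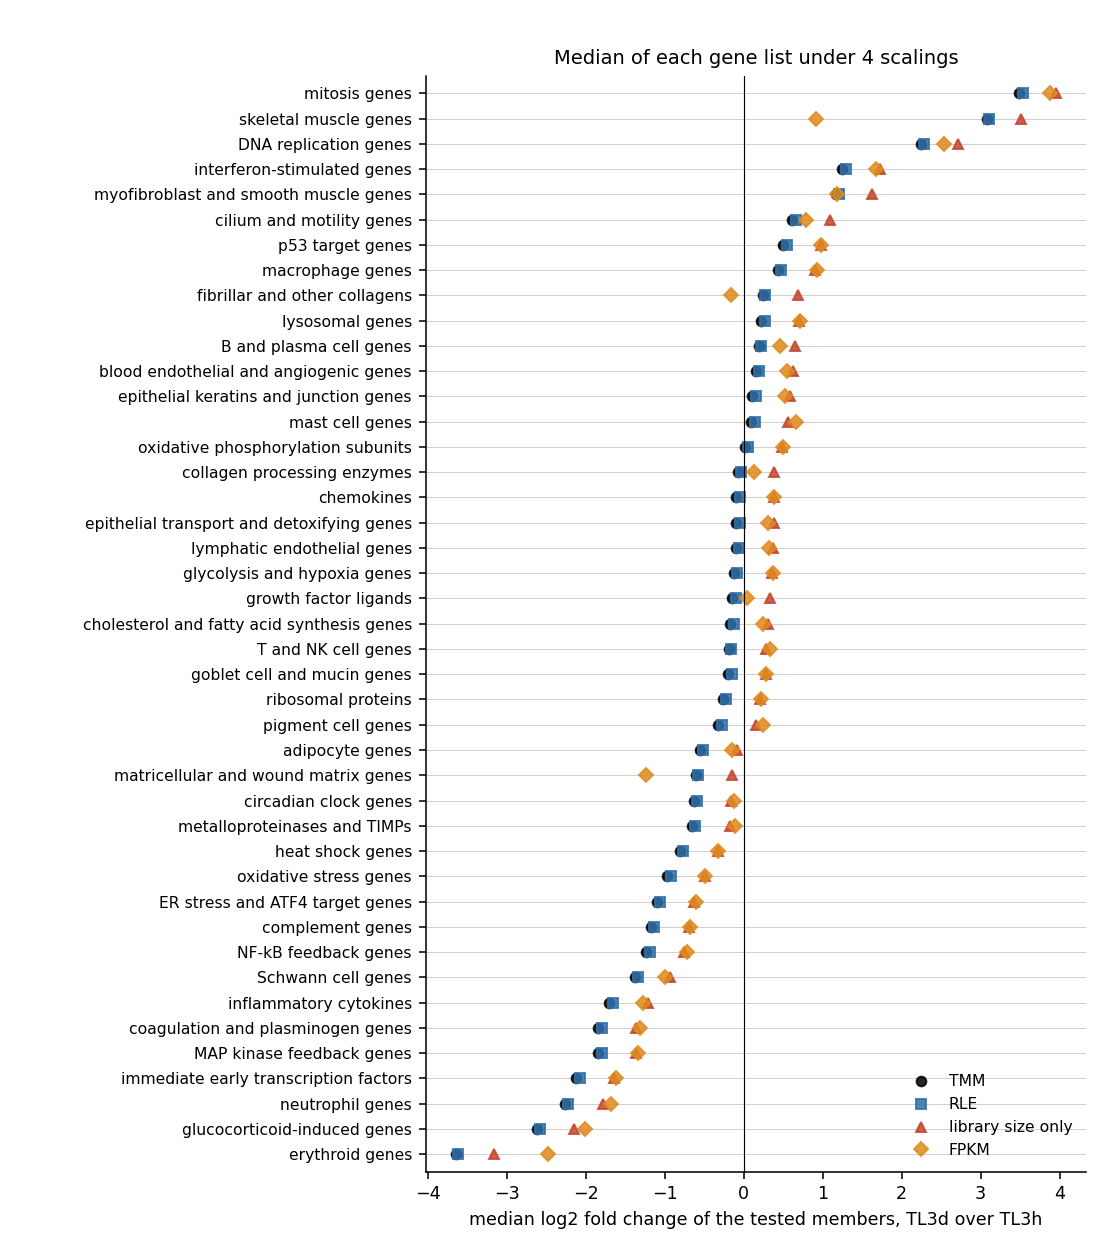
Median log2 fold change of the tested members of 43 gene lists under TMM, RLE size factors, library size alone, and log2(FPKM + 0.1). Library size alone lies to the right of TMM in every list, and the sign turns in lists near 0, whereas mitosis genes stay at or above 3.49 and immediate early genes at or below -1.63.

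Of 39 growth factor ligands, 6 rose and 6 fell, a little below the shares of all genes, with a median of -0.15, which turned to 0.33 with library size alone. PDGFC and PDGFB, ligands that draw mesenchymal cells, rose. PDGFC was 4.5, 4.31, and 8.74 CPM at TL3h and 24.7, 45.1, and 60.6 CPM at TL3d (log2 fold change 2.89 ± 0.71 (SE), adjusted p = 0.0102), and PDGFB was 1.96, 1.74, and 2.41 CPM at TL3h and 8.92, 14.1, and 10.5 CPM at TL3d (log2 fold change 2.45 ± 0.63 (SE), adjusted p = 0.0125). The Wnt ligands WNT10A, WNT4, and WNT5B also rose, with WNT10A at 22.2, 18.1, and 5.97 CPM in the control libraries, 0.73, 1.33, and 1.57 CPM at TL3h, and 13.3, 10.2, and 7.4 CPM at TL3d (log2 fold change 3.09 ± 0.54 (SE), adjusted p = 0.00168). WNT10A and WNT4 were lower at TL3h than in the control libraries and higher again at TL3d. WNT4 lost its call without TL3h replicate 1, 2, or 3 (adjusted p from 0.0534 to 0.0663). BMP4, a morphogen of the TGF-beta family, was 30.9, 34.5, and 17 CPM at TL3h and 2.4, 2.46, and 4.01 CPM at TL3d (log2 fold change -3.21 ± 0.76 (SE), adjusted p = 0.00846). Its TL3d libraries lay below the TL3h libraries with no overlap. HBEGF, a ligand of the EGF receptor, was 272, 101, and 175 CPM at TL3h and 59.9, 16.4, and 9.25 CPM at TL3d (log2 fold change -2.68 ± 0.92 (SE), adjusted p = 0.0434). HBEGF lost its call without control replicate 1, 2, or 3, TL3h replicate 1, 2, or 3, or TL3d replicate 2 or 3, or with scaling by library size alone (adjusted p from 0.0553 to 0.137). AREG, the EGF receptor ligand amphiregulin, was 80.2, 17.9, and 24.4 CPM at TL3h and 9.89, 3.11, and 1.02 CPM at TL3d (log2 fold change -3.12 ± 1.08 (SE), adjusted p = 0.0439). AREG lost its call without control replicate 1, 2, or 3, TL3h replicate 1, 2, or 3, TL3d replicate 2 or 3, or TL14d replicate 3, or with scaling by library size alone or no filter (adjusted p from 0.0504 to 0.164). Of the calls, 5 rises and 2 falls held without each of the 6 libraries. The number of ligands that fell was 2 without TL3h replicate 3 or TL3d replicate 2 and 3 without TL3h replicate 1 or 2. TGFB2, a TGF-beta ligand linked to scarring, was 34.1, 22.5, and 34.1 CPM at TL3h and 26.9, 45.7, and 22.9 CPM at TL3d (log2 fold change 0.07 ± 0.65 (SE), adjusted p = 0.94). VEGFA, the vascular growth factor, was above the control libraries at both times, with 59.7, 87.2, and 82.2 CPM in the control libraries, 284, 275, and 221 CPM at TL3h, and 289, 209, and 206 CPM at TL3d (log2 fold change -0.15 ± 0.36 (SE), adjusted p = 0.775).

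Vascular, nerve, and fat genes gave few calls. Of 23 blood endothelial and angiogenic genes, 2 rose and 1 fell, below the shares of all genes, and the median of 0.15 turned to -0.35 without TL3d replicate 3. Of these, 1 rise, that of VCAM1, and no fall held without each of the 6 libraries. The calls of EMCN, endomucin of endothelium, and PGF, placental growth factor, were lost (adjusted p from 0.0624 to 0.135 and adjusted p from 0.055 to 0.144). VCAM1, a leukocyte adhesion molecule of activated endothelium, was 0.461, 0.954, and 0.622 CPM at TL3h and 10.2, 4.83, and 16 CPM at TL3d (log2 fold change 3.93 ± 0.93 (SE), adjusted p = 0.00836). PECAM1, an endothelial and leukocyte adhesion protein, was 5.91, 26, and 135 CPM in the control libraries, 717, 972, and 459 CPM at TL3h, and 170.2, 196, and 221 CPM at TL3d, lower in each TL3d than in each TL3h library (log2 fold change -1.87 ± 0.90 (SE), adjusted p = 0.126), and passed in the fit of the 6 libraries (adjusted p = 0.0054). LYVE1, the hyaluronan receptor of lymphatic vessels, was 10.3, 30.1, and 281 CPM in the control libraries, 357, 410.2, and 348 CPM at TL3h, and 109, 80.3, and 106 CPM at TL3d (log2 fold change -1.91 ± 1.14 (SE), adjusted p = 0.21), and passed in the same fit (adjusted p = 0.000968). PROX1, the factor that defines lymphatic endothelium, was 7.92, 8.34, and 7.76 CPM at TL3h and 9.97, 9.15, and 9.28 CPM at TL3d (log2 fold change 0.24 ± 0.66 (SE), adjusted p = 0.799). Of 15 Schwann cell genes, 1 rose and 2 fell, with a median of -1.38, and L1CAM, a neural adhesion protein, was 5.23, 2.41, and 3.15 CPM at TL3h and 42, 22.6, and 11.3 CPM at TL3d (log2 fold change 2.81 ± 0.70 (SE), adjusted p = 0.0107). MBP, a protein of myelin, was 36, 23.1, and 35.7 CPM at TL3h and 10.8, 6.71, and 7.34 CPM at TL3d (log2 fold change -1.93 ± 0.28 (SE), adjusted p = 0.000544). Of the Schwann cell calls, the rise and 1 fall held without each of the 6 libraries. The glial factor SOX10 was under 2 CPM in every library. Of 10 adipocyte genes, 2 fell, near the share of all genes, and the median was -0.56. LPL, which frees fatty acids from lipoproteins, was 34.9, 87.7, and 339.6 CPM in the control libraries, 276, 299, and 203 CPM at TL3h, and 4.8, 4.28, and 9.56 CPM at TL3d (log2 fold change -5.38 ± 0.97 (SE), adjusted p = 0.00195). DGAT2, of triglyceride synthesis, was 337, 324, and 150.3 CPM at TL3h and 47.1, 28.1, and 11.5 CPM at TL3d (log2 fold change -3.23 ± 0.66 (SE), adjusted p = 0.00387). ADIPOQ, the adipocyte hormone adiponectin, was 79.1, 119, and 91 CPM at TL3h and 20.2, 36.7, and 132 CPM at TL3d and overlapped (log2 fold change -0.61 ± 0.81 (SE), adjusted p = 0.579). Of 9 pigment cell genes, whose median of -0.33 turned to 0.16 with library size alone, 1 rose. It was RAB38, a Rab protein of melanosome transport that other cells express too, at 18.5, 18.2, and 11 CPM in the control libraries, 2.08, 2.03, and 1.83 CPM at TL3h, and 20.5, 20.8, and 12.2 CPM at TL3d (log2 fold change 3.17 ± 0.34 (SE), adjusted p = 0.000122). The 10 skeletal muscle genes had a median of 3.08, and of -0.99 without TL3d replicate 3. The muscle gene that rose, MYH3, an embryonic myosin, was 0.0384, 0.0415, and 0 CPM at TL3h and 0.824, 0.647, and 25.3 CPM at TL3d, at least 76.6-fold higher at TL3d with 3 counts in each TL3h library as the floor (adjusted p = 0.0438). TL3d replicate 3 set that bound, which was 6.31-fold without it. MYH3 lost its call without TL3h replicate 1, 2, or 3, TL3d replicate 3, or TL14d replicate 2 or 3, or with limma-trend (prior count 0.5), limma-trend (prior count 2), or FPKM (adjusted p from 0.0516 to 0.177). None of 9 lymphatic endothelial genes passed, and their median of -0.10 turned to 0.37 with library size alone. Neither erythroid gene passed (median -3.65).

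Where the higher group averaged 10 CPM or more and the groups did not overlap, several of the 15 largest rises belonged to none of the lists. PLA2G2F, a secreted phospholipase A2 of epithelium, was 0, 0.083, and 0.0366 CPM at TL3h and 29.5, 11.6, and 1.51 CPM at TL3d, which is at least 121-fold higher at TL3d with 3 counts in each TL3h library as the floor (adjusted p = 0.00274). THEM5, a mitochondrial thioesterase, was 0.0769, 0.124, and 0.0366 CPM at TL3h and 21.8, 16.4, and 0.341 CPM at TL3d, at least 110-fold higher by the same floor (adjusted p = 0.0106). In both, TL3d replicate 1 was the highest and replicate 3 the lowest, and without replicate 1 the bounds were 56.1-fold for PLA2G2F and 71.7-fold for THEM5. COCH, a secreted protein known from the inner ear, was 0.522, 0.35, and 0.828 CPM in the control libraries, 1.04, 2.03, and 1.02 CPM at TL3h, and 114, 81.5, and 35.1 CPM at TL3d (log2 fold change 5.81 ± 1.02 (SE), adjusted p = 0.00171). AVPR2, the vasopressin V2 receptor, was 0.269, 0.207, and 0.11 CPM at TL3h and 18.7, 15, and 7.65 CPM at TL3d (log2 fold change 6.12 ± 1.19 (SE), adjusted p = 0.00298). ANKRD1, a stretch- and YAP-responsive ankyrin protein (chromosome 18, 38909353 to 38917411), was 0.0769, 0.166, and 0 CPM at TL3h and 2.55, 6.34, and 93.1 CPM at TL3d (log2 fold change 8.70 ± 2.49 (SE), adjusted p = 0.0204). It was highest in TL3d replicate 3. ANKRD1 lost its call without TL3h replicate 1, 2, or 3 or TL3d replicate 3, or with limma-trend (prior count 0.5) (adjusted p from 0.0571 to 0.0717). MEOX1, a homeobox factor of mesenchyme, also was highest in replicate 3, with 0.269, 0.456, and 0.402 CPM at TL3h and 2.65, 6.71, and 21.6 CPM at TL3d (log2 fold change 4.77 ± 1.12 (SE), adjusted p = 0.00785). MKX, the tendon homeobox factor mohawk, had the opposite order, with 0.269, 0.996, and 0.293 CPM at TL3h and 21.4, 15.9, and 4.27 CPM at TL3d (log2 fold change 4.74 ± 1.20 (SE), adjusted p = 0.0116). LGI2, BRINP1, and NYNRIN made up the rest, with log2 fold changes of 5.01, 4.69, and 4.80.

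Among the 15 largest falls, several genes were highest in TL3h replicate 2. COL2A1, the collagen of cartilage, was 2.92, 9.98, and 67 CPM in the control libraries, 4.15, 153, and 61.4 CPM at TL3h, and 0.225, 0.0924, and 0.626 CPM at TL3d (log2 fold change -7.84 ± 1.86 (SE), adjusted p = 0.00836). PTN, the heparin-binding growth factor pleiotrophin, was 4.37, 16.4, and 82.5 CPM in the control libraries, 11.8, 156, and 64.7 CPM at TL3h, and 0.05, 0.0616, and 2.73 CPM at TL3d (log2 fold change -6.35 ± 1.71 (SE), adjusted p = 0.0153). GRIK1, a kainate receptor subunit, was 6.12, 6.13, and 42.4 CPM in the control libraries, 4.96, 47.7, and 20.4 CPM at TL3h, and 0.05, 0.0924, and 0.0569 CPM at TL3d, which is at least 289-fold lower at TL3d with 3 counts in each TL3d library as the floor (adjusted p = 0.0165). The bound was 150-fold without TL3h replicate 2. SLC7A3, LECT1, and PI15 had the same order of TL3h libraries, and in all 6 genes TL3h replicate 1 was the lowest of its group and control replicate 3 the highest control library. Every TL3d library of these genes was below every TL3h library. The call of PTN was lost without TL3d replicate 2 (adjusted p = 0.0524), that of NUDT11 likewise (adjusted p = 0.0511), and that of GRIK1 without TL3d replicate 1, 2, or 3 (adjusted p from 0.0529 to 0.0601). NTS, the gut and brain peptide neurotensin, was 0.0712, 0.25, and 0.0502 CPM in the control libraries, 85.2, 41.8, and 9.88 CPM at TL3h, and 0.0999, 0.277, and 0.171 CPM at TL3d, so that TL3d was across the control level (log2 fold change -7.96 ± 0.98 (SE), adjusted p = 0.000243). CLDN11, a claudin of myelin and testis, was 17, 26.6, and 14.8 CPM at TL3h and 0.425, 0.246, and 0.455 CPM at TL3d (log2 fold change -5.68 ± 1.29 (SE), adjusted p = 0.00659). FAM150B, a ligand of the receptors ALK and LTK, was 19.4, 34.4, and 8.89 CPM at TL3h and 0.0749, 0.0616, and 0.37 CPM at TL3d (log2 fold change -6.92 ± 1.15 (SE), adjusted p = 0.00125).

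At the level of transcripts, 2863 of 26082 rose and 2708 fell, or 21.4% past the threshold. Without TL3d replicate 2, 3396 transcripts passed in place of 5571. Of 5119 genes with at least 2 tested transcripts, 26 (0.508%) had transcripts past the threshold in opposite directions. The reads of transcripts that share exons are divided by estimate, so these values are less certain than those of genes. MAP7D2, a microtubule-associated protein, had 1 transcript (XM_002719944.3) at 0 CPM in each TL3h library and at 4.58, 3.26, and 1.69 CPM at TL3d (adjusted p = 0.0012), and another (XM_002719947.3) at 14.8, 7.66, and 9.18 CPM at TL3h and at 0 in each TL3d library (adjusted p = 0.0285). ARHGEF4, a guanine nucleotide exchange factor of small GTPases, had a long transcript of 6501 bases (XM_008258457.2) at 2.97, 0.864, and 2.4 CPM at TL3h and 118, 86, and 54.6 CPM at TL3d (adjusted p = 0.000233). Its short transcript of 2786 bases (XM_008258458.2) was at 1.41, 2.2, and 1.64 CPM at TL3h and at 0 in each TL3d library (adjusted p = 0.0436). CHD9, a chromatin remodeler, did not pass as a gene (log2 fold change 0.28, adjusted p = 0.341). Its transcript XM_017342224.1 was 15.6, 13.7, and 11.8 CPM at TL3h and 64.8, 68.3, and 66.2 CPM at TL3d (adjusted p = 0.00168), and its transcript XM_017342221.1 was 42.3, 23.4, and 59.4 CPM at TL3h and 4.48, 5.52, and 8.24 CPM at TL3d (adjusted p = 0.0395). The other genes named by the size of the smaller change were BAG6, CCNT2, LMO7, TBC1D8, and NUP98.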

How the data were processed

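RNA-seq of conjunctiva was deposited for 12 libraries in 4 groups of 3 (control, TL3h, TL3d, TL14d), named by group and replicate as labelled. Per the study's methods, stranded TruSeq mRNA libraries were read in pairs, and the authors aligned reads with STAR 2.6.0c to the rabbit genome OryCun2.0 (tool and build per the submitters' processing notes) and computed values per gene and transcript with GeneData Profiler Genome. The deposited estimated counts are not divided by library size, and 22.7% of the values per gene and 51.0% of those per transcript are fractions. How reads with several placements were shared is not given in the sources used here. The FPKM values, scaled by the authors to transcript length and library size, served as an alternative only. All value columns belonged to a labelled sample.

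Estimated counts were rounded to whole numbers, filtered with filterByExpr (minimum count 10, minimum total 15), scaled by TMM, and tested with the edgeR 4.0.16 quasi-likelihood test (R 4.3.3) in 1 fit of all 12 libraries, with TL3d minus TL3h as contrast. Of 20566 genes in the table, 2336 were at 0 in every library and 14835 were tested. Adjusted p-values are Benjamini-Hochberg over all genes tested, with a threshold of 0.05, and SE is that of the log2 fold change. Fitted values use a prior count of 0.125. Where a group had at most 3 counts in every library, its fold is given against a floor of 3 counts per library. Such a bound holds for the observed counts, and it does not cover the counting error of a group with counts at or near 3. Reads were not counted by unique molecules, and the floor does not allow for that either. With 3 libraries against 3, an exact permutation test of a single gene cannot go below 0.1. The scripts were tested on simulated counts.

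The 43 gene lists (1059 symbols, of which 903 were in the table and 854 tested) and the named genes were chosen with earlier results of these data known. Genes were named by rule: marked anchors of the lists, up to 3 members of a list past the threshold with the largest change in each direction, the 15 largest rises and falls with at least 10 CPM in the higher group and no overlap, and 8 genes with opposite transcripts. A few further members were named after their values were seen (CCL7, CD3E, CD8A, KIT, the other members of a family or count). Alternatives were RLE size factors, library size alone, DESeq2 1.42.0, edgeR's likelihood-ratio and exact tests, limma 3.58.1 trend on log2 CPM with prior counts of 0.5 and 2 and on log2(FPKM + 0.1), other filters, the 6 libraries alone, a replicate block, a fold of at least 2, and leaving out each library. Leaving out TL3d replicate 3 and control replicate 3 together was chosen after seeing the data. Promoter motifs were not analysed here. Most list members are given only in the counts and medians of their lists, and a few genes that the rule names are not reported here.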

Additional observations from a re-analysis of the deposited data

How the results depend on the processing

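The 5537 genes past the threshold became 5520 with RLE size factors (5355 of them also called in the same direction above), 6626 with DESeq2 (5513), 5579 with the likelihood-ratio test, 5452 with the exact test, 5733 and 5771 with limma-trend, 5244 without a filter, 5399 with a mean of at least 1 CPM, 5823 in the 6 libraries alone (792 of them not called above), and 5151 without TL3d replicate 3 and control replicate 3 together. Leaving out each library gave 3954 genes (without TL3d replicate 2) to 6231 (without TL14d replicate 1), with 2055 to 3082 rises, 1899 to 3149 falls, and 217 to 331 calls among list members. For transcripts only the TL3h and TL3d libraries were left out, which gave 3396 (without TL3d replicate 2) to 4428 (without TL3d replicate 3) in place of 5571. The median SD of log2 CPM was 0.119 to 0.226 within TL3d, the lowest without TL3d replicate 3, and 0.181 to 0.223 within TL3h. Fewer libraries leave fewer degrees of freedom by construction.

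Scaling by library size alone gave 5078 rises and 1233 falls, FPKM gave 5174 and 1322, and a fold of at least 2 left 3283 genes, 1803 up and 1480 down. The called falls of ATP5F1, ATP5G1, SDHD, and RPL15 and the uncalled value of SDHB turned to 0.038, 0.055, 0.12, 0.18, and 0.39 with library size alone and to 0.039, 0.065, 0.13, 0.19, and 0.41 with FPKM, where none of the 4 called genes passed. The cause was not tested beyond the scaling itself. With the replicate block, 5831 genes passed (2797 rose and 3034 fell), among them COL3A1 (adjusted p = 0.0453) and COL1A1 (adjusted p = 0.0493). Whether the replicate numbers pair the libraries is not given. The deviations of TL3h and TL3d libraries with the same number from their group means correlated across genes at 0.26, -0.16, and -0.13. Not every library correlated best with its own number, and TL3h replicate 2 with TL3d replicate 3 had 0.35. These values cannot decide on a pairing, as the deviations within a group sum to 0 by construction.

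Of 267 named genes, 148 kept their side of the threshold in every alternative. Of 6923 values over those genes and alternatives, 6329 did so, 448 lost the call, 136 gained it, and 10 were counted as reversed. The sign of genes near 0 that did not pass could also turn with the scaling, and such turns are not all among the 10. By level, the median SE of the log2 fold change was 0.81 under 1 CPM, 0.43 from 1 to 10 CPM, and 0.21 from 10 CPM up, so that small differences were not detectable in genes of low level.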
